A study of Sus scrofa with 12 samples.

Results

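The genes described here make, store, sense and clear histamine and the catecholamines in the pig hypothalamus. They were chosen by name, with all transcripts of a gene added up, and 9 of the 10 genes in the set were found among the 19256 mRNA genes of the series. The monoamine oxidase gene MAOA was not analysed here. The 9 genes had 25 transcripts, of which 22 stood above 0 in at least 1 library.

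The libraries came from the hypothalamus of 3 germ-free (GF) pigs, which had no gut microbiota, and of 3 colonized (CG) pigs, which received fecal microbiota by gavage from day 3 to day 7 of life. All were piglets of 1 Chinese Bama sow born by hysterectomy, reared in sterile isolators and labelled as male and 45 days old. The study's methods give a slightly younger age. For RNA, only a portion of each hypothalamus was used, and which piglets shared an isolator is not given in the sources used here, so isolator and group cannot be told apart. Values are TPM, transcript abundances scaled by transcript length and by library total, a unit that keeps no sequencing depth, so the reads behind each value are unknown.

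Histamine in the brain is made by neurons of the tuberomammillary nucleus in the posterior hypothalamus, which promote wakefulness. HDC makes it from histidine, the vesicular transporter SLC18A2 loads it into vesicles, and HNMT inactivates it by methylation inside cells. Dopamine is made in hypothalamic neurons, among them the arcuate cells that restrain prolactin release, by TH, the rate-limiting enzyme, and then DDC. SLC18A2 packs dopamine too, SLC6A3 takes it back up at the cell surface, and monoamine oxidases such as MAOB, an enzyme of the outer mitochondrial membrane, break down amines.

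Some libraries stood apart. Of 16 genes that mark the hypothalamus, 2 reached 1 TPM in GF replicate 1, 10 in each of GF replicates 2 and 3, and 15 or 16 in CG pigs. The summed level of this list was 57.3, 1152 and 1042 TPM across GF replicates 1 to 3 and 1043 to 2502 TPM among CG pigs. The oxytocin gene OXT alone stood at 0.14, 1006 and 870 TPM in these GF replicates and at 582, 1836 and 740 TPM across CG replicates 1 to 3. It made up most of the sum in every library but GF replicate 1. Of the 15 list genes tested below, 12 were lower in every GF pig than in every CG pig and 0 higher. Of all tested genes 32.8% were lower in this way, and 5 of the 15 reached 1 TPM in no GF library. The 9 thalamus markers summed to 988, 193 and 994 TPM across GF replicates 1 to 3 and to 221 to 260 TPM among CG pigs, and the 8 pituitary markers to 2.40 to 12.3 TPM among GF pigs against 246, 17.5 and 5392 TPM across CG replicates 1 to 3. General neuron markers (7 genes) summed to 2270, 1439 and 2176 TPM among GF pigs and to 1828 to 2067 TPM among CG pigs. The Y-linked gene ZFY stood at 0.03 TPM or less in GF pigs and at 13.7, 16.1 and 0 TPM across CG replicates 1 to 3, which goes against the label male for the GF libraries and CG replicate 3. The part of the dissection, of sex and of these libraries in the values below was not tested beyond leaving libraries out. In bulk tissue, fewer cells of a type and less RNA per cell cannot be told apart.

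The genes for histamine synthesis and for vesicular storage of monoamines had less RNA in GF pigs. HDC fell to 2.13 ± 2.62 TPM among GF pigs, against 59.6 ± 25.9 TPM among CG pigs (SD, n = 3 each), and SLC18A2 fell to 3.32 ± 1.72 TPM among GF pigs, against 29.9 ± 8.06 TPM among CG pigs. TH, DDC and SLC6A3 were lower in every GF pig than in every CG pig without passing the test. Of all tested genes, 32.8% did not overlap in this direction. HNMT, HRH1, HRH3 and MAOB overlapped between the groups.

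**Figure D1:**
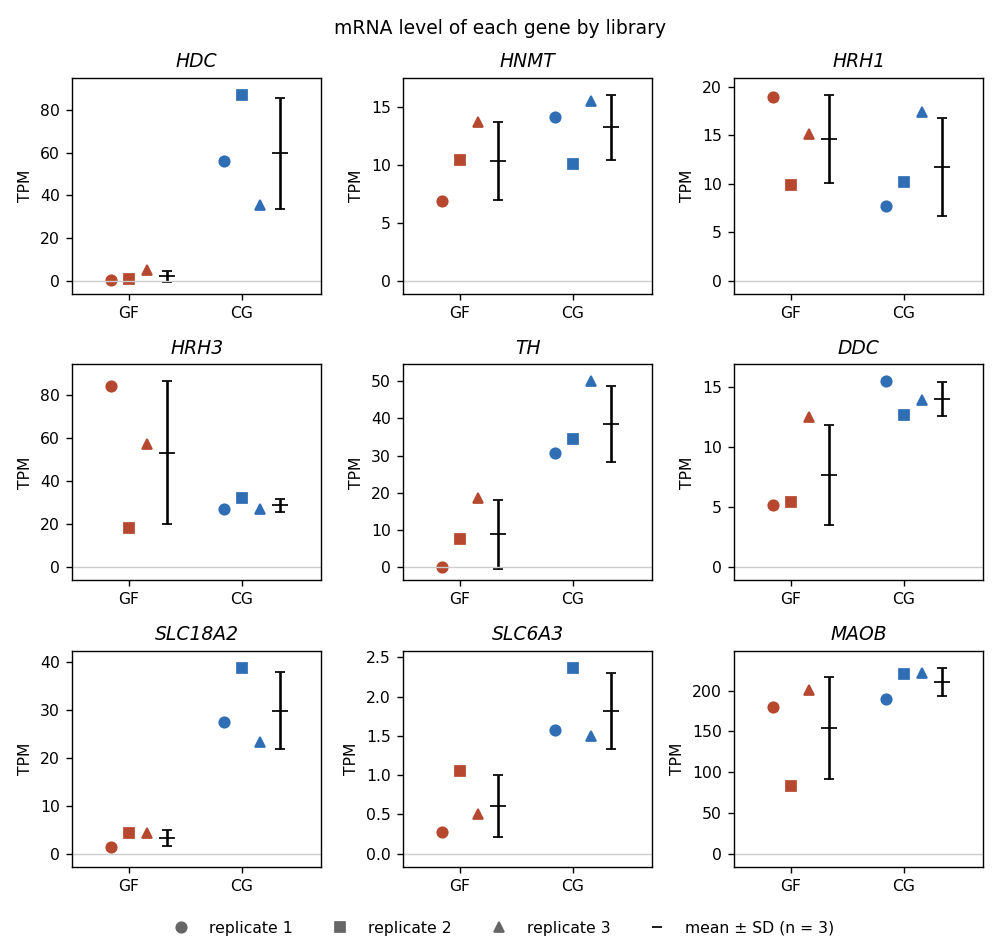
TPM of the 9 genes in each library, with GF pigs on the left and CG pigs on the right of each panel, 1 symbol per replicate number, and the mean ± SD of 3 pigs in black. HDC stayed at or under 5.15 TPM among GF pigs and stood at 35.6 TPM or more in CG pigs, while MAOB was low in GF replicate 2 alone, at 83.4 TPM.

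The groups were set against each other gene by gene with limma on log2(TPM + 1) over all 14641 mRNA genes with at least 1 TPM in at least 3 libraries. All 9 genes found passed this filter, HDC and SLC6A3 with CG pigs supplying 3 of their 4 libraries at 1 TPM. Genes were called at an adjusted p under 0.05 (Benjamini-Hochberg) and a log2 fold change, GF over CG, of at least 1 in size. By this rule 2 of the 9 genes were lower in GF pigs, where 2.42% of all tested genes were, and 0 were higher, where 0.471% of all were (2.89% in either direction). At an unadjusted p under 0.05 the limma counts were 5 lower and 0 higher, where 26.6% of all tested genes were lower and 4.31% higher. All GF values were under all CG values for 5 of the 9 genes and for 32.8% of all tested genes, and above them for 0 of the 9 and for 5.42% of all. The median log2 fold change was -0.82 over the 9 genes and -0.23 over all tested genes, so a value near -0.23 is the typical shift between these libraries.

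HDC, histidine decarboxylase, lies on chromosome 1 from 121505677 to 121525416 (RefSeq, Sscrofa11.1; ENSSSCG00000004644). It stood at 0.42, 0.83 and 5.15 TPM for GF replicates 1, 2 and 3, against 56.0, 87.1 and 35.6 TPM across CG replicates 1, 2 and 3. The groups did not overlap, and the highest GF value was that of GF replicate 3. The GF mean was 3.58% of the CG mean, with a log2 fold change of -4.50 (standard error 0.57, 95% confidence interval -5.83 to -3.17, limma adjusted p = 0.022). All of this RNA was assigned to 1 transcript, ENSSSCT00000005129, and the other transcript of the gene was listed at 0 in every library.

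The call of HDC did not hold without GF replicate 1 (adjusted p = 0.056), CG replicate 1 (adjusted p = 0.081) or CG replicate 2 (adjusted p = 0.10), while the log2 fold change stayed between -5.14 and -4.08 whichever library was left out. Against CG replicate 3 alone, whose ZFY was at 0 like that of GF replicate 3, the log2 fold change was -3.86 (limma adjusted p = 0.15, with CG replicate 3 assumed to vary like the GF pigs). The gene is also active in mast cells, which were checked by 4 of 8 listed marker genes. FCER1A, HPGDS and MS4A2, which mast cells express, stood at 0.22 TPM or less in GF pigs and at 1.46 TPM or less in CG pigs. MS4A2 stood at 0.09 to 0.22 TPM among GF pigs and at 0.26 to 0.49 TPM among CG pigs, without overlap. FCER1A and HPGDS were above 0 in GF replicate 1 and CG replicate 3 only. All of these values were too low to be tested. KIT, a receptor that neurons share, stood at 48.2, 9.89 and 18.4 TPM among GF pigs and at 17.0 to 21.9 TPM among CG pigs, where the groups overlapped.

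HNMT, histamine N-methyltransferase, lies on chromosome 15 from 13733412 to 13768106 (ENSSSCG00000035195). It stood at 6.88, 10.4 and 13.7 TPM across GF replicates 1 to 3, and at 14.2, 10.1 and 15.5 TPM across CG replicates 1 to 3. The groups overlapped, with a log2 fold change of -0.36 (95% confidence interval -0.99 to 0.28, limma adjusted p = 0.40).

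Neither receptor passed the test. HRH1, the receptor that excites target neurons, lies on chromosome 13 from 67209261 to 67411174 (ENSSSCG00000011576). It stood at 18.9, 9.89 and 15.1 TPM among GF pigs, and at 7.69, 10.1 and 17.3 TPM among CG pigs, with overlap (log2 fold change 0.33, 95% confidence interval -0.45 to 1.10, limma adjusted p = 0.54). Against CG replicate 3 alone, which had the highest CG value, the sign turned (log2 fold change -0.27).

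HRH3 is the presynaptic receptor by which histamine neurons limit their own synthesis and release, and it sits on other neurons as well. Its gene lies on chromosome 17 from 61622865 to 61627278 (ENSSSCG00000038578). It stood at 84.2, 18.2 and 56.9 TPM across GF replicates 1 to 3, and at 26.8, 32.3 and 26.8 TPM across CG replicates 1 to 3. GF replicates 1 and 3 lay above all CG pigs and GF replicate 2 lay below them. Over all libraries the fold change was 0.63 on the log2 scale (standard error 0.49, 95% confidence interval -0.52 to 1.77, limma adjusted p = 0.42). Without GF replicate 2 it was 1.25 and past both thresholds (adjusted p = 0.029). The summed thalamus markers were high in the same GF replicates 1 and 3, and of these TCF7L2, a transcription factor of thalamic neurons, stood at 250, 40.7 and 165 TPM among GF pigs and at 32.4 to 39.4 TPM among CG pigs. The list was not uniform, since LHX2 stood at 7.71, 3.90 and 13.2 TPM among GF pigs and at 7.51 to 19.3 TPM among CG pigs, and PRKCD at 7.43, 25.4 and 18.5 TPM among GF pigs and at 9.63 to 22.7 TPM among CG pigs. The part of thalamic tissue in the HRH3 values was not tested.

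**Figure D2:**
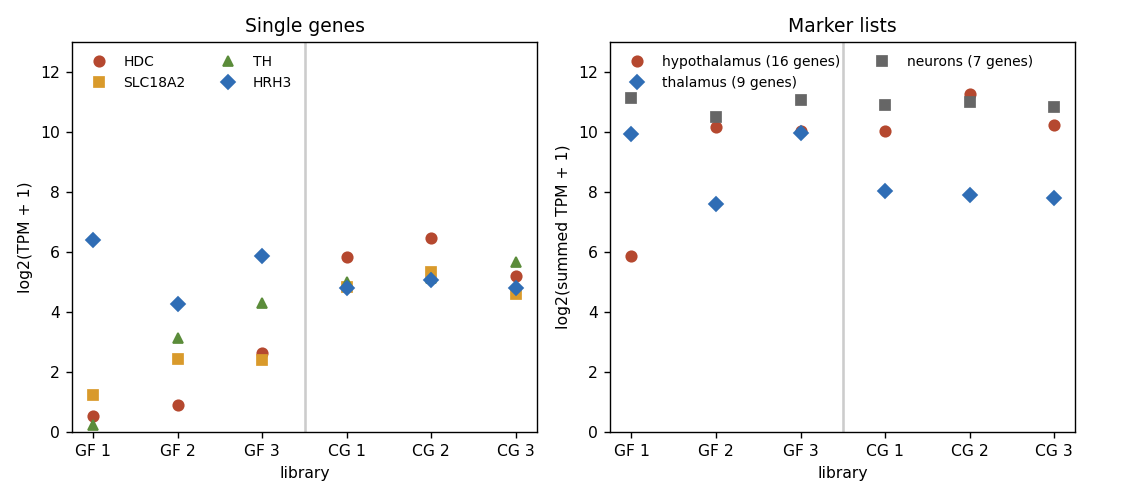
Levels of HDC, SLC18A2, TH and HRH3 as log2(TPM + 1) on the left and summed marker levels as log2(summed TPM + 1) on the right, for GF replicates 1 to 3 and then CG replicates 1 to 3. HRH3 and the thalamus list were both low in GF replicate 2, at 18.2 and 193 TPM, while the hypothalamus list was low in GF replicate 1, at 57.3 TPM. OXT made up most of the hypothalamus sum in all other libraries.

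SLC18A2, the vesicular monoamine transporter shared by histamine and catecholamine neurons, lies on chromosome 14 from 127357605 to 127394242 (ENSSSCG00000020671). It stood at 1.34, 4.35 and 4.28 TPM across GF replicates 1 to 3, and at 27.6, 38.9 and 23.2 TPM across CG replicates 1 to 3. The highest GF value was under the lowest CG value by a wide margin. On the log2 scale the fold change was -2.90 (standard error 0.36, 95% confidence interval -3.74 to -2.06, limma adjusted p = 0.021). Without GF replicate 1 the call held (log2 fold change -2.51, adjusted p = 0.022). It did not hold without GF replicate 3 (adjusted p = 0.064) or without CG replicates 1, 2 or 3 (adjusted p = 0.075, 0.10 and 0.051), with log2 fold changes of -3.09, -2.94, -2.70 and -3.06. Against CG replicate 3 alone it was -2.58 (adjusted p = 0.14).

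TH, tyrosine hydroxylase, lies on chromosome 2 from 1499628 to 1506180 (ENSSSCG00000039767). It stood at 0.17, 7.67 and 18.7 TPM across GF replicates 1 to 3, and at 30.8, 34.3 and 49.99 TPM across CG replicates 1 to 3. The groups did not overlap, and the GF values spread from near 0 upward. The log2 fold change was -2.72 (standard error 0.91, 95% confidence interval -4.86 to -0.58, limma adjusted p = 0.0999), so TH did not pass. Without GF replicate 1 the log2 fold change was -1.56 (adjusted p = 0.10).

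DDC, aromatic L-amino acid decarboxylase, makes dopamine and also serotonin, and lies on chromosome 9 from 136496364 to 136571220 (ENSSSCG00000022009). It stood at 5.22, 5.40 and 12.5 TPM across GF replicates 1 to 3, and at 15.5, 12.7 and 14.0 TPM across CG replicates 1 to 3. GF replicate 3 lay just under CG replicate 2, whereas GF replicates 1 and 2 lay well under all CG pigs. For DDC the log2 fold change came to -0.88 (95% confidence interval -1.61 to -0.15, limma adjusted p = 0.11).

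DDC had 9 transcripts in the deposited table, 6 of which reached 1 TPM in some library. ENSSSCT00000028029 stood at 0, 0.62 and 0.35 TPM among GF pigs, and at 3.62, 2.46 and 2.37 TPM among CG pigs. It reached 1 TPM in CG pigs only and so passed the filter through them (log2 fold change -1.54, limma adjusted p = 0.026 over 27945 transcripts, of which 3.95% were called lower and 1.86% higher). ENSSSCT00000065463 had the opposite pattern, at 0, 1.81 and 1.43 TPM among GF pigs and at 0 in every CG pig, and did not pass the filter. ENSSSCT00000054015 stood at 1.81, 1.37 and 5.14 TPM among GF pigs and at 2.69, 2.13 and 5.69 TPM among CG pigs, with overlap. ENSSSCT00000025860 overlapped too, at 2.77, 0 and 4.68 TPM among GF pigs and at 3.11, 5.85 and 4.26 TPM among CG pigs. ENSSSCT00000079002 stood at 0.02, 0.91 and 0 TPM among GF pigs and at 2.1, 1.36 and 1.64 TPM among CG pigs. It passed the filter through CG pigs as well (limma adjusted p = 0.075 over transcripts). ENSSSCT00000087381 was listed at 4 TPM in CG replicate 1 and at 0 in the 5 other libraries. Reads shared between transcripts of 1 gene can be split in different ways, so the levels of single transcripts are less certain than their sum.

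SLC6A3, the dopamine transporter, lies on chromosome 16 from 79186114 to 79220302 (ENSSSCG00000017121). It stood at 0.28, 1.05 and 0.51 TPM across GF replicates 1 to 3, and at 1.57, 2.37 and 1.5 TPM across CG replicates 1 to 3. The level was low in all libraries, and the groups did not overlap. The log2 fold change was -0.82 (95% confidence interval -1.40 to -0.23, limma adjusted p = 0.082), on a scale that understates changes of low genes. With a pseudocount of 0.1 in place of 1 it was -1.54 (adjusted p = 0.092).

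MAOB lies on the X chromosome from 39025973 to 39144389 (ENSSSCG00000023215) and was the most abundant of the 9 genes in both groups. It stood at 179, 83.4 and 200.3 TPM across GF replicates 1 to 3, and at 190.1, 220.2 and 220.9 TPM across CG replicates 1 to 3. GF replicate 3 overlapped with the CG pigs and GF replicate 2 lay far under all others. The log2 fold change was -0.54 (95% confidence interval -1.27 to 0.19, limma adjusted p = 0.28) and -0.15 without GF replicate 2 (adjusted p = 0.44). Against CG replicate 3 alone, with ZFY at 0, it was -0.61 (adjusted p = 0.60). GF replicate 2 also had the lowest sum of neuron markers, at 1439 TPM, and the highest sum of oligodendrocyte markers, at 18328 TPM against 6304 to 12658 TPM in the other libraries, and its astrocyte marker sum was 3104 TPM, against 2090 to 3413 TPM in the others. Their part in the MAOB values was not tested.

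The 3 transcripts of MAOB did not share 1 direction. ENSSSCT00000023183 stood at 120, 56.0 and 122 TPM among GF pigs and at 137, 130.0 and 156 TPM among CG pigs. ENSSSCT00000033745 stood at 8.02, 3.90 and 16.4 TPM among GF pigs and at 1.85, 1.56 and 3.26 TPM among CG pigs, where every GF value was the higher one (log2 fold change 1.54, limma adjusted p = 0.086 over transcripts). It made up 4.47%, 4.68% and 8.17% of the gene's TPM among GF pigs and 0.97%, 0.71% and 1.48% in CG pigs. For HRH1, ENSSSCT00000065990 stood at 13.3, 8.27 and 13.6 TPM among GF pigs and at 6.73, 3.55 and 7.73 TPM among CG pigs, also without overlap (log2 fold change 0.88, limma adjusted p = 0.12).

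**Figure D3:**
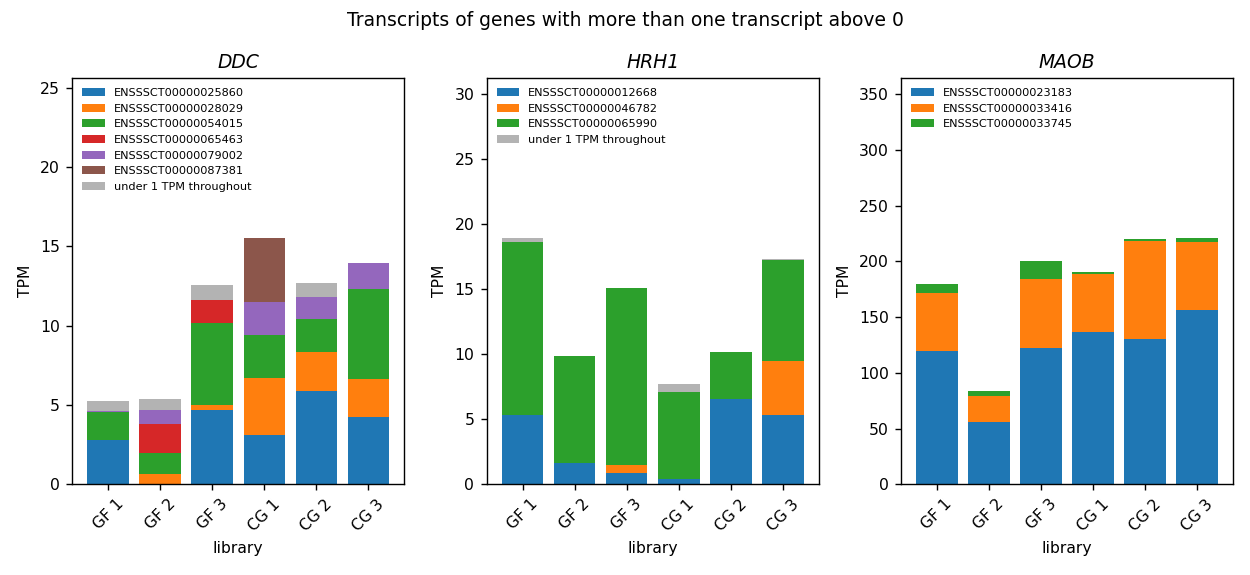
TPM of the transcripts of DDC, HRH1 and MAOB stacked by library, GF replicates 1 to 3 left of CG replicates 1 to 3, with transcripts that stayed under 1 TPM pooled in grey. The DDC transcript in orange, ENSSSCT00000028029, was at 0 to 0.62 TPM among GF pigs and 2.37 to 3.62 TPM among CG pigs.

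**Figure D4:**
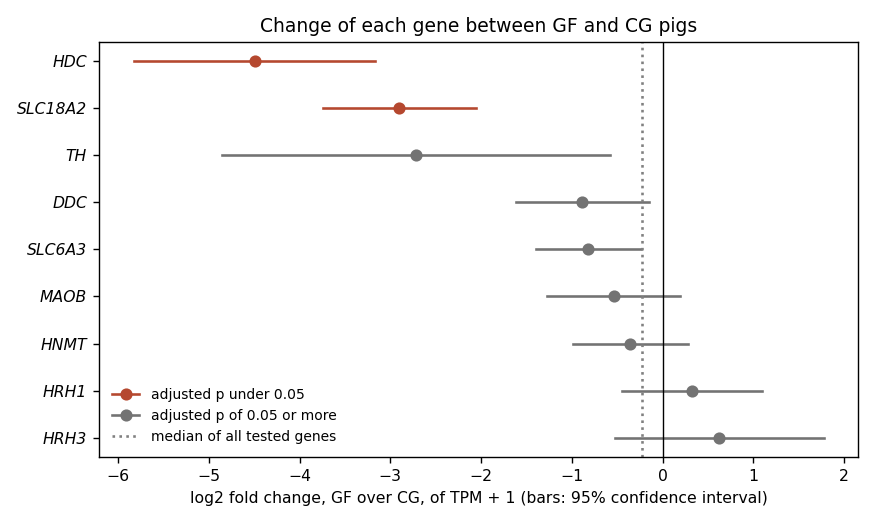
Log2 fold change, GF over CG, of each gene on the log2(TPM + 1) scale, with its 95% confidence interval and, as a dotted line, the median of all tested genes at -0.23. HDC and SLC18A2 (red) passed the adjusted test, and the intervals of HNMT, HRH1, HRH3 and MAOB crossed 0.

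The order of the genes by TPM differed between the groups. In GF pigs it ran MAOB, HRH3, HRH1, HNMT, TH, DDC, SLC18A2, HDC and SLC6A3, where the ranges of all neighbours overlapped except those of DDC and SLC18A2. In CG pigs it ran MAOB, HDC, TH, SLC18A2, HRH3, DDC, HNMT, HRH1 and SLC6A3. There MAOB stood clear of HDC, HRH3 of DDC, and HRH1 of SLC6A3, and the other neighbours overlapped. HDC was thus second in CG pigs and last but one in GF pigs, with a GF range of 0.42 to 5.15 TPM that overlapped with both neighbours.

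Whether HDC differed by more than SLC18A2 or TH was tested on the difference of log2(TPM + 1) within each library. HDC minus SLC18A2 was -0.72, -1.55 and 0.22 in GF replicates 1 to 3 and 0.99, 1.14 and 0.60 in CG replicates 1 to 3, so the groups did not overlap. The difference was -1.59 (two-sided exact permutation p = 0.10, which is the smallest that 3 against 3 allow, adjusted p = 0.20 over 2 comparisons). HDC minus TH was 0.28, -2.24 and -1.68 in GF pigs and 0.84, 1.32 and -0.48 in CG pigs, with overlap (difference -1.78, exact permutation p = 0.20, adjusted p = 0.20). In GF replicate 1 both HDC and TH were close to 0, whereas GF replicates 2 and 3 held more TH than HDC.

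Genes with the most similar profile were found among 12168 tested genes with a symbol, by the root mean square difference of centred log2(TPM + 1) over the 6 libraries. For HDC these were RPL31, a ribosomal protein gene (0.83), AGRP, an appetite-stimulating peptide (0.87), and GHRH, the growth hormone-releasing hormone (0.94). RPL31 stood at 15.7 to 26.0 TPM among GF pigs and 340 to 683 TPM among CG pigs, and ribosomal protein genes have near-identical copies that can share reads, so its level is uncertain. SLC18A2 was matched more closely, by the muscarinic receptor CHRM5 (0.29), the hypothalamic homeobox factor HMX3 (0.31) and the thromboxane synthase TBXAS1 (0.44). CHRM5 stood at 1.33, 4.35 and 4.39 TPM among GF pigs and at 28.8, 25.3 and 15.2 TPM among CG pigs. For TH the closest were HCRT, the orexin precursor (0.28), the GABA receptor subunit GABRQ (0.30) and the imprinted gene PEG10 (0.49). HCRT stood at 0.61, 12.1 and 22.7 TPM across GF replicates 1 to 3 and at 38.5, 37.1 and 40.4 TPM among CG pigs, with GF replicate 1 near 0 as for TH.

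Of 7 other listed genes of histamine handling 5 were tested, of which 1 was lower at an adjusted p under 0.05 and 0 higher, against 4.93% and 1.08% of all tested genes, and the median log2 fold change was -0.29. The one that fell was SLC29A4, a plasma membrane transporter that takes up monoamines with low affinity, at 8.98, 14.0 and 13.6 TPM among GF pigs and 26.5, 23.0 and 23.2 TPM among CG pigs (log2 fold change -0.96, limma adjusted p = 0.045). Of the 6 fits with a library left out it passed without GF replicate 2 only, and the adjusted p was 0.079 to 0.16 in the others. HRH4 stood at 28.1, 52.7 and 62.8 TPM among GF pigs and 49.6 to 65.3 TPM among CG pigs, and HRH2 at 6.18 to 7.92 TPM among GF pigs and 7.90 to 8.80 TPM among CG pigs.

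Among the other genes of catecholamine and serotonin synthesis, 8 of 9 were found and 5 tested. SPR, sepiapterin reductase, which makes the tetrahydrobiopterin cofactor that TH needs, stood at 26.9, 32.6 and 35.9 TPM among GF pigs and 50.3, 50.5 and 48.1 TPM among CG pigs. It fell by 0.64 on the log2 scale (limma adjusted p = 0.048) and of the 6 fits with a library left out it passed without GF replicate 2 only, with an adjusted p of 0.074 to 0.17 in the others. The other cofactor genes GCH1, PTS, PCBD1 and QDPR did not pass, with log2 fold changes of -0.48 to -0.32. DBH, which makes noradrenaline, PNMT, which makes adrenaline, and TPH2, which starts serotonin synthesis in neurons, stood at 0.61 TPM or less in every library and were not tested.

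Of the other transport and breakdown genes 8 of 9 were found and 6 tested, and 0 passed the adjusted limma test. At an unadjusted limma p under 0.05, 3 were lower and 1 higher, against 26.6% and 4.31% of all tested genes. The other vesicular transporter, SLC18A1, stood at 0.85, 0.85 and 1.34 TPM among GF pigs and at 2.08, 3.37 and 2.45 TPM among CG pigs, without overlap (log2 fold change -0.85, adjusted p = 0.061). ALDH2, which oxidizes the aldehydes that monoamine oxidase leaves, stood at 62.6, 46.5 and 37.8 TPM among GF pigs and at 35.7, 24.2 and 32.8 TPM among CG pigs, with every GF value the higher one (log2 fold change 0.64, adjusted p = 0.11). AKR1A1 and AKR1B1, which reduce such aldehydes, differed by log2 fold changes of -0.83 (adjusted p = 0.062) and -0.36 (adjusted p = 0.15).

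Of 7 tested companion genes of tuberomammillary neurons, 0 passed the adjusted limma test. At an unadjusted limma p under 0.05, 0 were higher and 1 was lower, against 4.31% and 26.6% of all tested genes. That gene was GAL, the galanin peptide, at 2.22, 21.5 and 8.55 TPM among GF pigs and 47.1, 87.4 and 33.0 TPM among CG pigs, with no overlap (log2 fold change -2.57, adjusted p = 0.063). GAD2, a GABA-synthesizing enzyme made by many hypothalamic neurons, stood at 80.6, 96.0 and 77.1 TPM among GF pigs and at 92.3 to 121 TPM among CG pigs (log2 fold change -0.35, adjusted p = 0.16). HCRTR2, the receptor through which orexin excites histamine neurons, differed by -0.34 on the log2 scale (adjusted p = 0.41), and PENK, the enkephalin precursor, by -1.17 (adjusted p = 0.23). ADA went the other way, at 9.99, 7.41 and 5.11 TPM among GF pigs and 8.63, 7.59 and 1.98 TPM among CG pigs (log2 fold change 0.40). GAD1 and SLC32A1 had log2 fold changes of -0.27 and -0.17, near the median of -0.23 over all tested genes.

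Of 12 tested transcription factors of the hypothalamic dopamine groups and the posterior hypothalamus, 6 fell, 0 rose and 6 did not pass, against 4.93% lower and 1.08% higher of all tested genes, and the median log2 fold change was -1.85. BSX reached 1 TPM in no GF library and HMX3 in 1, so both passed the filter through CG pigs. Among those that fell were NKX2-1 (-3.62), BSX (-3.17), HMX3 (-2.56), ISL1 (-1.90) and FOXB1 (-1.81), with limma adjusted p of 0.0027 to 0.032. FOXB1, a factor of the mammillary region, which borders the tuberomammillary neurons, stood at 6.31, 8.13 and 8.37 TPM among GF pigs and at 44.8, 27.0 and 19.8 TPM among CG pigs. BSX passed in all 6 fits with a library left out, NKX2-1 without GF replicate 1 or 2, ISL1 without GF replicate 2 or CG replicate 1, FOXB1 without GF replicate 2 or CG replicate 3, and HMX3 without GF replicate 2 only. LHX9 stood at 20.2, 1.68 and 22.2 TPM among GF pigs and 1.02 to 2.99 TPM among CG pigs, high in the GF replicates with high thalamus marker sums (log2 fold change 2.08, limma adjusted p = 0.13).

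Of 10 listed factors of midbrain dopamine and hindbrain noradrenaline neurons, 9 were found and only NR4A2 was tested, at 13.2, 20.6 and 16.1 TPM among GF pigs and 18.2, 18.2 and 30.7 TPM among CG pigs (log2 fold change -0.38, limma adjusted p = 0.34). The others stood at 2.31 TPM or less in every library. Among them FOXA1 stood at 0.06 to 0.15 TPM among GF pigs and 0.47 to 2.31 TPM among CG pigs, LMX1A at 0.33 to 0.42 TPM among GF pigs and 0.52 to 1.52 TPM among CG pigs, and PHOX2A at 0 to 0.16 TPM among GF pigs and 0.29 to 0.74 TPM among CG pigs, each without overlap. FOXA2 went the other way, at 0.02 to 0.08 TPM among GF pigs and at 0 in every CG pig. PITX3 stood at 0.18, 0.48 and 1.34 TPM among GF pigs and at 0.07 to 0.49 TPM among CG pigs, with overlap. LMX1B, EN1 and EN2 overlapped too. Most of these values lay under 1 TPM.

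Markers of other cells and regions were counted by the same adjusted p. Of 15 tested hypothalamus markers 6 fell (NKX2-1, BSX, AGRP, SIX6, NR5A1 and NKX2-4) and 0 rose, against 4.93% and 1.08% of all tested genes. Of these, 5 reached 1 TPM in no GF library (all but NKX2-1) and so passed the filter through CG pigs. The hypothalamus list shares genes with the transcription factors above, NKX2-1 and BSX among them, so the counts are not separate. NEFL, 1 of 7 neuron markers, and MBP, 1 of 6 oligodendrocyte markers, were higher in GF pigs, as were 7 of 13 mitochondrial DNA genes (ND1, ND3, ND4, ND4L, ND6, ATP6 and ATP8), and 0 genes of these lists passed as lower. In the limma fit 0 of 9 thalamus, 3 pituitary, 7 astrocyte, 8 vascular and 1 mast cell markers passed. At an unadjusted limma p under 0.05, 4 thalamus markers were higher and 2 pituitary, 1 astrocyte and 2 vascular markers lower. Of the 2 pituitary markers, TBX19 reached 1 TPM in no GF library and so passed the filter through CG pigs. Of all tested genes 4.31% were higher and 26.6% lower at that p. Of the neuron markers, MAP2 (log2 fold change -0.53) and STMN2 (-0.55) were lower at that unadjusted p. Mitochondrial DNA genes made up 17.8% of the mRNA TPM of every GF pig and 8.17% to 11.8% of that of CG pigs. With them out of the scaling, HDC had a log2 fold change of -4.42 and SLC18A2 one of -2.81, both still past the thresholds.

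**Figure D5:**
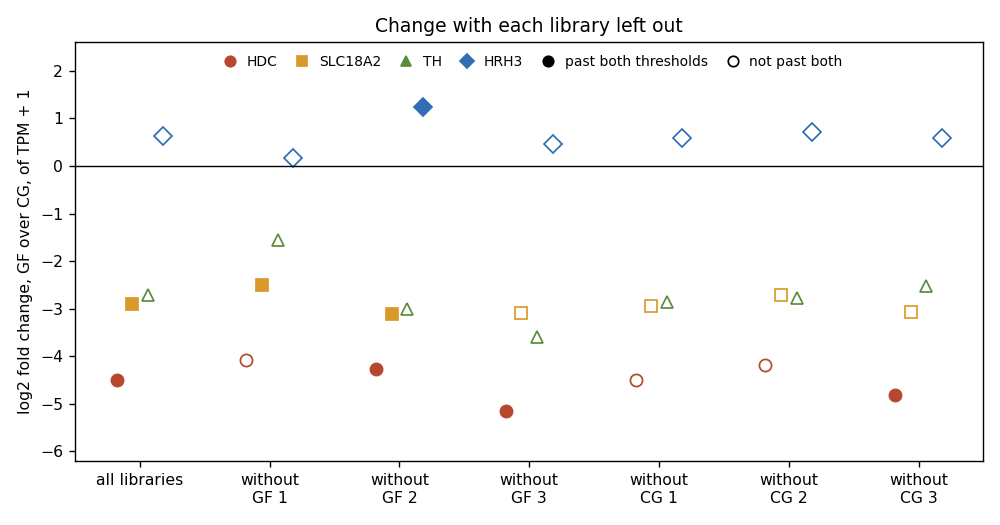
Log2 fold change, GF over CG, of HDC, SLC18A2, TH and HRH3 with all libraries and with each library left out, filled where both thresholds were passed. HDC stayed between -5.14 and -4.08 with a library left out, but passed in 3 of these 6 fits, SLC18A2 in 2 and TH in 0, while HRH3 passed without GF replicate 2 only.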

How the data were processed

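Hypothalamic RNA of 3 GF and 3 CG pigs was sequenced. The authors deposited TPM per transcript, made from trimmed reads aligned to Sscrofa11.1. The paper names TopHat, Cufflinks and HTSeq, and the submitters' processing notes name fastp, HISAT and RSEM. TPM sums of the mRNA sheet were 793723 to 845526 per library, and the lncRNA and miRNA sheets were not used here. Columns of CG pigs are named after the fecal transplant. Depth is unknown, so no counting error is given. The p values rest on the spread between libraries, in which pigs, dissection and library preparation cannot be told apart.

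TPM were added up per gene and log2(TPM + 1) was fitted with limma 3.58.1 (trend, R 4.3.3), a test on a log scale in place of the count model in the study's methods, since the values are TPM. Further steps used Python 3.11.15 with scipy 1.17.1, pandas 2.3.3, matplotlib 3.10.9 and numpy 2.4.6. The fit was tested on simulated data. The genes, lists, rules and alternatives were chosen with earlier results of these data known. Named were all members and, per list, the genes that passed or up to 4 with the smallest p, and 3 nearest profiles for HDC, SLC18A2 and TH. Marker lists in which no gene passed are given as counts and sums, and some listed genes are counted but not reported here by name. LHX9, GCH1, PTS, PCBD1, QDPR, HRH2, HRH4, DBH, PNMT, TPH2, FOXA1, FOXA2, LMX1A, LMX1B, PHOX2A, PITX3, EN1, EN2, ADA, GAD1, SLC32A1, OXT, LHX2, PRKCD, MAP2, STMN2, FCER1A, HPGDS and MS4A2 were named after their values were seen. The planned MAOB minus MAOA comparison was not run. As alternatives, each library was left out, a pseudocount of 0.1, no fold threshold and no filter on low values were tried, as were a replicate block, mitochondrial genes out of the scaling, median-centred libraries, transcripts in place of genes, no trend and, chosen after seeing the data, leaving out GF replicate 1 with CG replicate 3, or CG replicates 1 and 2. All 9 genes matched a RefSeq entry by symbol.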

Additional observations from a re-analysis of the deposited data

How the results depend on the processing

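HDC kept its sign in all 14 alternatives (log2 fold change -5.36 to -3.86) and its call in 8, and SLC18A2 kept its sign in 14 (-3.27 to -2.51) and its call in 9. The 2 members called lower became 0 to 2 with 1 library left out, 1 without GF replicate 1 and CG replicate 3, and 0 without CG replicates 1 and 2, where 2 had an unadjusted limma p under 0.05. The fits without CG replicate 1 and without CG replicate 2 called 0, with 4 and 5 lower at an unadjusted p under 0.05. The count of members called higher was 0 to 1 with 1 library left out, the 1 being HRH3. The 423 genes called in all became 192 with no filter on low values, 184 with mitochondrial genes out of the scaling, 219 with median-centred libraries, 880 with no fold threshold, 1623 with transcripts in place of genes, 22 to 717 with 1 library left out, 31 without GF replicate 1 and CG replicate 3, and 40 without CG replicates 1 and 2. The split of 69 higher and 354 lower became 122 and 97 with median-centred libraries, 61 and 123 with mitochondrial genes out of the scaling, and 51 and 141 with no filter, and the median log2 fold change of all genes was 0.01, -0.14 and -0.18 there. The cause of these moves was not tested. The fits that leave libraries out also hold fewer libraries.

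Same-numbered pigs did not deviate together (correlations of -0.024, 0.058 and -0.010 over genes), and not every library correlated best with its own number. With the replicate block 35 genes were called, 1 of them a member, SLC18A2 (adjusted p = 0.049), while HDC had an adjusted p of 0.063.

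HRH1 reversed without CG replicates 1 and 2 (-0.27), NR4A2 without GF replicate 1 and CG replicate 3 (0.0022, with -0.54 as the lowest value when 1 library was left out and -0.87 without CG replicates 1 and 2), and KIT without GF replicate 1 (-0.53), CG replicate 3 (-0.047) or both (-0.63), with 0.56 without GF replicate 2 as its highest value. None of these passed in any fit. The exact paired sign-flip permutation test of the log2 differences of HDC from SLC18A2 and TH gave p = 0.25 for both, the smallest that 3 pairs allow. TPM without depth limits what can be said of genes under about 1 TPM, such as SLC6A3.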
